A study of Mus musculus with 8 samples.

Results

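DL-Etv1 neurons are the deep-layer excitatory neurons of the mouse prefrontal cortex (PFC) that the deposited annotation names after the transcription factor gene Etv1. They were taken here as every cell with that name in the deposited table of excitatory neurons, looked up by library and barcode in the matrices of unique molecular identifiers (UMIs). There were 383 such cells among 2775 excitatory neurons and 8997 annotated PFC cells, and the excitatory neurons fell into 7 subtypes. The study compared wild-type (WT) littermates with Setd1a+/- mice, in which CRISPR-Cas9 had introduced a frameshift deletion ahead of the SET domain of the histone methyltransferase Setd1a in 1 allele. Each genotype had 2 libraries of single-cell RNA sequencing, each from dissociated PFC of 2 pooled mice, all male, of the strain C57BL/6N and 8 to 10 weeks old by the labels, while the study's methods give an older age. The mutation came from a founder made in BDF1 zygotes, is present in all cells of the animal, and no group received any other treatment.

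In the neocortex, layer 5 holds excitatory neurons that project to other cortical areas and the striatum, the intratelencephalic type, beside neurons that project to the brainstem and spinal cord and near-projecting neurons with short local axons. Etv1, also known as Er81, marks layer 5 neurons of more than a single type. Bcl11b and Fezf2 mark the brainstem-projecting type, Foxp2 and Tle4 the corticothalamic neurons of layer 6, and Cux2 the superficial layers. SETD1A places methyl groups on lysine 4 of histone H3 at active promoters.

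The 383 cells came from all 4 libraries, with 51 and 142 cells from WT replicates 1 and 2, and 93 and 97 from Setd1a+/- replicates 1 and 2. No barcode was shared between libraries among them. Their summed UMIs came to 741048 and 1400393 for WT, against 905527 and 1050941 for Setd1a+/-, so that 1 UMI was worth between 0.714 and 1.35 CPM, the unit of all levels below, in which the summed UMIs of the cells of a library are scaled to 1000000. DL-Etv1 cells were the deepest of the 7 subtypes in each of the 4 libraries. The median cell had 14540 and 9646 UMIs in the WT libraries, against 9570 and 10203 for Setd1a+/-, and WT replicate 1 stood above the other libraries.

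The markers given for the subtype were at hand in these cells, but the gene that names it was not highest there. S100b, which encodes a calcium-binding protein (chromosome 10, 76253853 to 76261159 in mm10), was at 97.2 and 129 CPM in the WT and at 81.7 and 128 CPM in the Setd1a+/- libraries. Its mean of 109 ± 23.6 CPM (SD, n = 4 libraries) was 1.97 times that of the next subtype, DL-Pou3f1, at 55.3 CPM. Deptor, an inhibitor of the growth kinase mTOR (chromosome 15, 55112317 to 55259271), was at 55.3 and 90.7 CPM in the WT and at 87.2 and 79.9 CPM in the Setd1a+/- libraries, 2.34 times the level in DL-Pou3f1. Only WT replicate 2 and Setd1a+/- replicate 1 had at least 10 DL-Pou3f1 cells. Its mean there rests on 48.4 and 62.2 CPM for S100b, and on the uneven 58 and 8.89 CPM for Deptor. In both genes each DL-Etv1 library lay above the mean of the nearest subtype.

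Nell1, a secreted protein with epidermal growth factor-like repeats (chromosome 7, 49974864 to 50866608), was at 66.1 and 70.7 CPM in the WT and at 80.6 and 80.9 CPM in the Setd1a+/- libraries. Its mean of 74.6 ± 7.37 CPM was 2.02 times that in DL-Nnat, the subtype next to it. Stxbp6, a partner of the syntaxins of the vesicle fusion machinery (chromosome 12, 44852484 to 45074709), behaved otherwise. Its level was 78.3 and 149 CPM in the WT and 87.2 and 113 CPM in the Setd1a+/- libraries, with a mean of 107 CPM that lay under the 298 CPM of DL-Pou3f1 and near the 104 CPM of SL-Myh7. Etv1 itself (chromosome 12, 38779380 to 38870484) was at 236 and 233 CPM in the WT and at 254 and 208 CPM in the Setd1a+/- libraries. That mean of 233 ± 18.8 CPM was under the 1031 CPM of DL-Tshz2 and close to the 259 CPM of DL-Pou3f1, and above the 115 CPM of DL-Nnat. The name of the subtype is therefore kept here as the annotation's label.

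**Figure D1:**
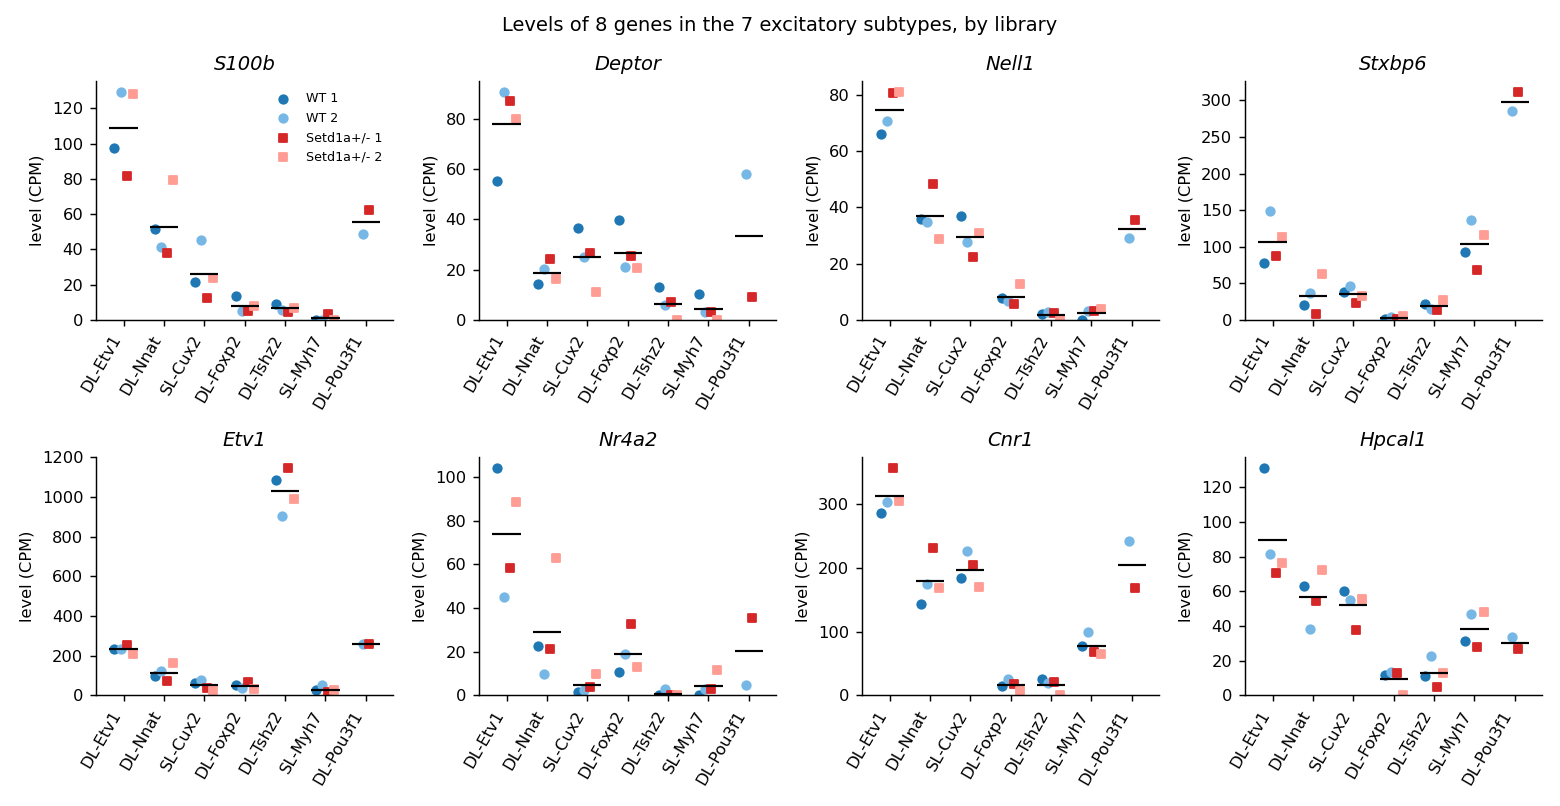
Level in CPM of 8 genes (vertical axes) in each of the 7 excitatory subtypes (horizontal axes), with a point for each library of at least 10 cells of that subtype (circles WT, squares Setd1a+/-) and a line at their mean. S100b, Deptor, Nell1, Nr4a2, Cnr1 and Hpcal1 have their highest mean in DL-Etv1, while Etv1 is highest in DL-Tshz2 (1031 CPM) and Stxbp6 in DL-Pou3f1 (298 CPM).

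Within the subtype the markers were unevenly found. S100b had a UMI in 41.3% of DL-Etv1 cells, Deptor in 44.4%, Nell1 in 48% and Stxbp6 in 46.7%, at a median depth of 10331 UMIs. In oligodendrocytes, a cell type used here as the background and with a median of 2056 UMIs, Deptor was found in 1.36% and Nell1 in 0.236% of cells. S100b and Stxbp6 were found in 25.6% and 16.4% of oligodendrocytes and Etv1 in 75.2%, so oligodendrocytes are no background for these 3 genes. All 4 markers were seen together in 38 cells, 3 of them in 78, 2 in 114, 1 in 77, and none in 76 cells. The number of markers seen moved with depth, from a median of 8496 UMIs in cells with none to 14252 UMIs in cells with all 4. Cells with at least 2 markers made up 60.1% of DL-Etv1, 40.3% of DL-Pou3f1, 13.4% of DL-Nnat and 10.9% of SL-Cux2. When each cell was thinned to 1000 UMIs these shares were 5.22% in DL-Etv1 and at most 1.61% in another subtype. Cells with at least 1 marker did not set DL-Etv1 apart from DL-Pou3f1, with 80.2% against 83.9%, and 30% against 29% when thinned.

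The comparison with the other excitatory subtypes was read as a description without a test, because the cells had been clustered on the same genes. A gene was counted as higher in DL-Etv1 when its mean was at least 50 CPM, at least 2-fold above the mean of each other subtype, and above each other subtype in every library with at least 10 cells of both. Only 3 genes met this rule, Nr4a2, Deptor and Nell1, which is 0.0844% of the 3556 genes at 50 CPM. Without the fold limit 77 genes stood above every other subtype in each library. No gene met the mirrored rule for lower genes. That rule asked for at least 50 CPM in each other subtype, which 2572 genes met, so its count and that of higher genes rest on different sets. DL-Etv1 was thus set apart from all 6 other subtypes at once by few genes, and from each of them by other sets.

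DL-Nnat was the subtype nearest to it. In each pair a gene was counted when its means were at least 2-fold apart and it lay on the same side in every library with at least 10 cells of both. Of 3738 genes at 50 CPM in either, 20 were so counted as higher and 17 as lower in DL-Etv1. Across genes the log2(CPM + 1) means had a Pearson r of 0.974 (genes are not independent replicates). The next was SL-Cux2, a superficial-layer subtype, with 59 higher and 42 lower genes of 3807. In falling order of r, DL-Pou3f1 had 174 and 139 such genes (r 0.892), SL-Myh7 172 and 134 (r 0.869) and DL-Foxp2 181 and 119 (r 0.846). DL-Pou3f1 had at least 10 cells only in WT replicate 2 (35 cells) and Setd1a+/- replicate 1 (12 cells), so its counts met a looser condition. DL-Tshz2, which carries near-projecting genes, was farthest, with 411 higher and 261 lower genes of 4036 and an r of 0.737.

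**Figure D2:**
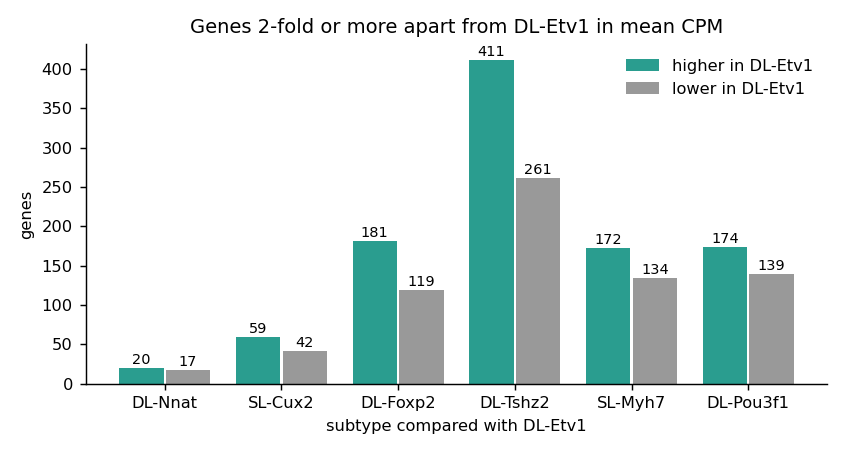
Number of genes (vertical axis) whose mean CPM is at least 2-fold higher (green bars) or at least 2-fold lower (grey bars) in DL-Etv1 than in each other excitatory subtype (horizontal axis), among genes with 50 CPM in either of the pair. Each gene also lies on the same side in every library with at least 10 cells of both. The counts run from 20 higher and 17 lower genes against DL-Nnat to 411 and 261 against DL-Tshz2.

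The genes that parted DL-Etv1 from DL-Nnat included peptides, calcium-binding proteins and markers of other layers; those named here were chosen after their values were seen. Npy, the gene of the neuropeptide Y precursor, was 23-fold lower, at 10.9 CPM against 250 CPM. Nnat, the small membrane protein gene neuronatin that names the neighbouring subtype, was at 30.3 CPM against 284 CPM, and S100a6, a calcium-binding protein gene, at 17.8 CPM against 111 CPM. The cadherin gene Cdh13 was at 36.8 CPM against 134 CPM. In the other direction Rprm, a gene of the layer 6 list, was 4.4-fold higher, Deptor 4.19-fold, Stxbp6 3.36-fold and the synaptic vesicle gene Synpr 2.98-fold. Synpr was at 277 CPM against 93.1 CPM, and at 165 CPM without the 17 DL-Etv1 cells that had 5 or more Nr4a2 UMIs. Etv1 was 2.03-fold higher than in DL-Nnat.

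Genes of several layer types lay below the mean of the other subtypes. All 4 near-projecting genes at 20 CPM in DL-Etv1 or in the mean of the others were at least 2-fold below that mean, among them Tshz2, a zinc finger gene, at 3.42 CPM against 2275 CPM in DL-Tshz2. The background was 101 of 6802 genes, or 1.48%, that far below the mean of the others, and 57 genes, or 0.838%, that far above it. A gene under 20 CPM in DL-Etv1 reached that level only through the other subtypes, so its place below their mean was fixed by that choice. Tshz2 and Foxp2 were such genes, and the counts of low list members do not place the cells. Of the 4 layer 6 genes at that level 3 were as far below, with the transcription factor gene Foxp2 at 3.16 CPM against 275 CPM in DL-Foxp2. Tle4, a corepressor gene, was at 21.2 CPM against 368 CPM in DL-Tshz2. Low values of Foxp2 and Tshz2 were shared with DL-Nnat. Foxp2 had a UMI in 2.61% of DL-Etv1 and 2.38% of DL-Nnat cells, and Tshz2 in 3.13% and 3.02%.

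Of the layer 5 genes, 3 of 6 were at least 2-fold below the mean of the others. Bcl11b, a regulator of brainstem-projecting neurons, was at 16.2 CPM against 309 CPM in DL-Pou3f1, and Fezf2, which acts ahead of it, at 33.8 CPM against 202 CPM in DL-Tshz2. Pou3f1 was at 2.16 CPM against 119 CPM in DL-Pou3f1. Low values of Fezf2 and Pou3f1 were shared with DL-Nnat and SL-Cux2, and those of Bcl11b with SL-Cux2. Fezf2 had a UMI in 26.9% of DL-Etv1, 13.4% of DL-Nnat and 12.9% of SL-Cux2 cells, and in 2.35%, 1.3% and 2.4% of thinned cells. In the same order the full-depth shares were 13.8%, 25.7% and 2.4% for Bcl11b and 2.61%, 2.16% and 3.35% for Pou3f1. Of the superficial-layer genes 4 of 5 were as far below. Cux2 was at 17.6 CPM and the calcium-binding gene Calb1 at 13.2 CPM, against 146 and 473 CPM in SL-Myh7. The mean of the others includes SL-Cux2 and SL-Myh7, with a Cux2 UMI in 33.9% and 49.5% of cells. Among deep-layer subtypes this share was highest in DL-Etv1, at 9.66% against 4.32% in DL-Nnat, 0.404% in DL-Foxp2 and 0.329% in DL-Tshz2. DL-Pou3f1 had it in 0 of 62 cells. DL-Etv1 cells were also the deepest, and in thinned cells the share was 1.83% against 1.3% in DL-Nnat. In Setd1a+/- replicate 2 it was 5.15%, under the 7.79% of DL-Nnat. Of the 37 DL-Etv1 cells with a Cux2 UMI, 7 were among the 17 cells with 5 or more Nr4a2 UMIs. Cux2 was at 143 CPM in those 17 cells and at 13.1 CPM in the other 366, where its share was 8.2%. Rorb, a nuclear receptor gene of layers 4 and 5 whose level was 128 and 103 CPM in the WT and 99.4 and 123 CPM in the Setd1a+/- libraries, was second to SL-Cux2 with 279 CPM. The list of layer 6b and claustral genes was mixed, with a median of 1.27 times the mean of the others over 3 genes, 1 of them (Nr4a2) 2-fold above and 1 (Nnat) 2-fold below it. For Nr4a2 the mean of the others was under 20 CPM, so its place above that mean was fixed by the 20 CPM limit.

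Genes of synaptic vesicle release were often highest in these cells. DL-Etv1 had the highest mean of the 7 subtypes in 10 of 30 such genes at 20 CPM, against 715 of 6802 genes, or 10.5%, in all. Syn2, which encodes a synapsin that tethers vesicles, was at 665 and 677 CPM in the WT and at 681 and 638 CPM in the Setd1a+/- libraries, above 528 CPM in DL-Nnat. Napb, a factor that helps take apart fusion complexes, had a mean of 908 CPM against 697 CPM in DL-Nnat. Cplx2, a complexin gene, went the other way, with 178 CPM against 601 CPM in DL-Foxp2. The subtype was also the deepest, and the part of depth in the count of highest genes was not tested.

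Cnr1, the cannabinoid receptor CB1, was at 286 and 304 CPM in the WT and at 357 and 306 CPM in the Setd1a+/- libraries, 1.53 times the 205 CPM of DL-Pou3f1. It had a UMI in 81.7% of DL-Etv1 cells and in 0.945% of oligodendrocytes. Of 8 neuromodulator receptor genes at 20 CPM, Cnr1 alone was 2-fold above the mean of the others and 3 were 2-fold below it. The latter were the serotonin receptor gene Htr2c, at 9.81 CPM against 206 CPM in DL-Tshz2, and the muscarinic receptor genes Chrm2 at 8.56 CPM and Chrm3 at 11.2 CPM. All 3 reached 20 CPM only through the other subtypes.

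The potassium channel list had 36 genes at 20 CPM, of which 7 were highest in DL-Etv1, and 2 were 2-fold above the mean of the others. These were Kcnc2, a gene of the Kv3 potassium channels with 31.6 ± 5.83 CPM (2.74-fold), and Kcnab1, an auxiliary subunit gene with 128 ± 17.8 CPM (2.21-fold). The nearest subtype lay close in both, with 21.8 CPM in DL-Nnat for Kcnc2 and 97.4 CPM in SL-Cux2 for Kcnab1. For Kcnc2 the mean of the others was under 20 CPM, so its place above that mean was fixed by the 20 CPM limit. None of 20 sodium, calcium and HCN channel genes and none of 9 AMPA, NMDA and kainate receptor genes was 2-fold from the mean of the others. The kainate receptor gene Grik2 was lowest against that mean, with 22.8 CPM against 35.7 CPM. Genes for the GABA-A receptor showed no 2-fold gap either, from 0.594 times the mean of the others for Gabrd to 1.38 times for Gabra5.

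Among calcium-binding proteins, Hpcal1, a neuronal calcium sensor of the visinin family, was at 131 and 81.4 CPM in the WT and at 70.7 and 76.1 CPM in the Setd1a+/- libraries, 1.58 times DL-Nnat. In DL-Nnat it was at 62.8 and 38.4 CPM in the WT and at 54.2 and 72.1 CPM in the Setd1a+/- libraries. The gap was thus wider in the WT libraries and small in Setd1a+/- replicate 2. Of 8 cadherin genes at 20 CPM, 1 was 2-fold above the mean of the others and 3 were 2-fold below it, and of 26 guidance genes 1 and 4. Cdh10, an adhesion gene, was at 102 CPM and 2.12 times the mean of the others, and Unc5c, a netrin receptor gene, at 39.3 CPM and 2.2 times. For Unc5c that mean was under 20 CPM, so its place above the mean was fixed by the 20 CPM limit. Sema5a, a semaphorin gene, was at 12.6 CPM against 174 CPM in DL-Foxp2. Among genes with 50 CPM in every other subtype, the lowest against the nearest of them was Sparcl1, a secreted matrix protein gene known from astrocytes, with 117 to 130 CPM over the 4 libraries against 198 CPM in DL-Nnat and 773 CPM in DL-Tshz2. Ahi1, a gene of the primary cilium, was at 224 CPM against 331 CPM in DL-Nnat. Among the lowest were also 7 genes, Txndc15, Fez1, Elmod1, Psma4, Exosc7, Ddx39b and Bphl, at 0.722 to 0.819 times their nearest subtype.

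The first of the 3 higher genes, Nr4a2, came from few cells. This nuclear receptor gene (chromosome 2, 57106830 to 57124003) was at 104 and 45 CPM in the WT and at 58.5 and 88.5 CPM in the Setd1a+/- libraries, against 29.2 CPM in DL-Nnat. It had a UMI in 54 cells, 14.1% of DL-Etv1, and 17 cells with 5 or more Nr4a2 UMIs held 84.3% of its 286 UMIs. These 17 cells were found in all 4 libraries, 3 and 4 in those of WT, against 3 and 7 for Setd1a+/-. The cells were chosen by Nr4a2 after its values were seen, so what follows is a description with no test.

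The 17 cells largely lacked the markers of the subtype. Deptor and Stxbp6 had a UMI in 0 of 17, which allows a share of up to 17.6% of cells with a UMI, against 170 and 179 of the other 366 cells. S100b had a UMI in 1 of the 17 cells, Nell1 in 3, Etv1 in 2 against 220, and Cnr1 in 1 against 312. Synpr had a UMI in all 17, at 3471 CPM against 178 CPM in the other cells. The G protein subunit genes Gng2 and Gnb4 had a UMI in 17 and 15 of them, against 289 and 77 of the other 366, the protease inhibitor gene Lxn in 16 against 97, and Oprk1, the kappa opioid receptor gene, in 13 against 16. Ntng2, and Cplx3 and Ctgf of the layer 6b and claustral list, had a UMI in 0 of the 17 cells, which allows a share of up to 17.6%, and in 2, 3 and 1 of the 366. Slc17a7, the vesicular glutamate transporter of cortical excitatory neurons, had a UMI in 11 of the 17 and in 334 of the 366 cells. Cux2 had a UMI in 7 of the 17 and in 30 of the 366. The median depth was 6539 UMIs in the 17 cells and 10508 in the others. Cells with 5 or more UMIs of both Nr4a2 and Synpr numbered 16 in DL-Etv1 and 0 in each other excitatory subtype. No cell type name is given to them here.

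**Figure D3:**
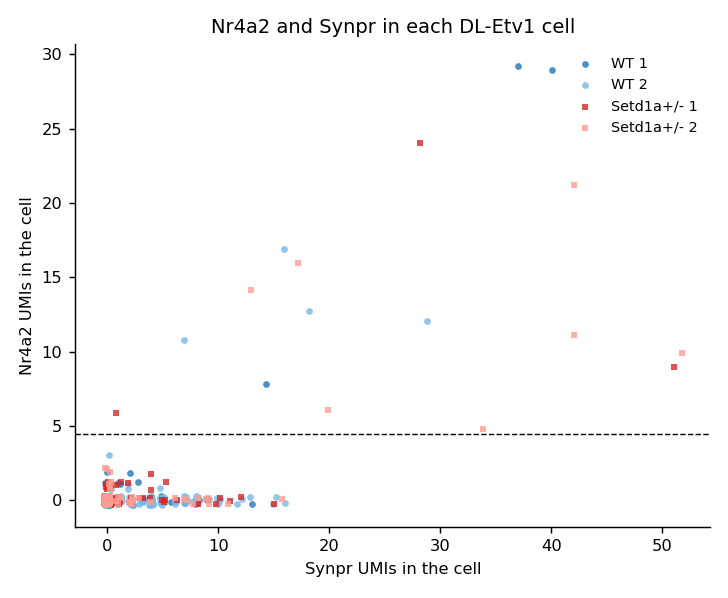
UMIs of Nr4a2 (vertical axis) against UMIs of Synpr (horizontal axis) in each of the 383 DL-Etv1 cells, coloured by library (circles WT, squares Setd1a+/-), with a small random shift so that points do not hide each other. The dashed line marks the limit of 5 UMIs, and 16 of the 17 cells above it also hold 5 or more Synpr UMIs.

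Without the 17 cells the Nr4a2 level was 15.4 and 7.3 CPM in the WT and 15.8 and 10 CPM in the Setd1a+/- libraries, a fall that the choice of cells fixes. The other subtypes were left whole, among them DL-Nnat with 4 cells of 5 or more Nr4a2 UMIs, so this level is not set against theirs. Deptor was then 2.42 times, Nell1 2.06 times and S100b 2.04 times the next subtype, and the rule again gave 3 genes, 2 of them as before. The mean of Synpr fell from 277 to 165 CPM and that of Oprk1 from 13.4 to 4.51 CPM.

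Between genotypes, the share of DL-Etv1 neurons among excitatory neurons was 12.4% (Wilson 95% interval 9.59 to 16) and 11.9% (10.2 to 13.9) in WT and 13.4% (11.1 to 16.2) and 20% (16.7 to 23.8) in Setd1a+/- libraries. The Setd1a+/- libraries lay above the WT libraries without overlap, by 4.55 percentage points on average. The 2-sided exact permutation test gave p = 0.333, the smallest value that 2 against 2 libraries allow. Without Setd1a+/- replicate 2 the difference was 1.25 points. Of all annotated PFC cells, DL-Etv1 neurons made up 1.94% and 5.3% in WT and 4.25% and 6.43% in Setd1a+/- libraries, which overlapped (exact permutation p = 0.667). Between libraries of the same number, both shares were higher for Setd1a+/- in 2 of 2 pairs, too few for a paired test to reach the threshold.

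**Figure D4:**
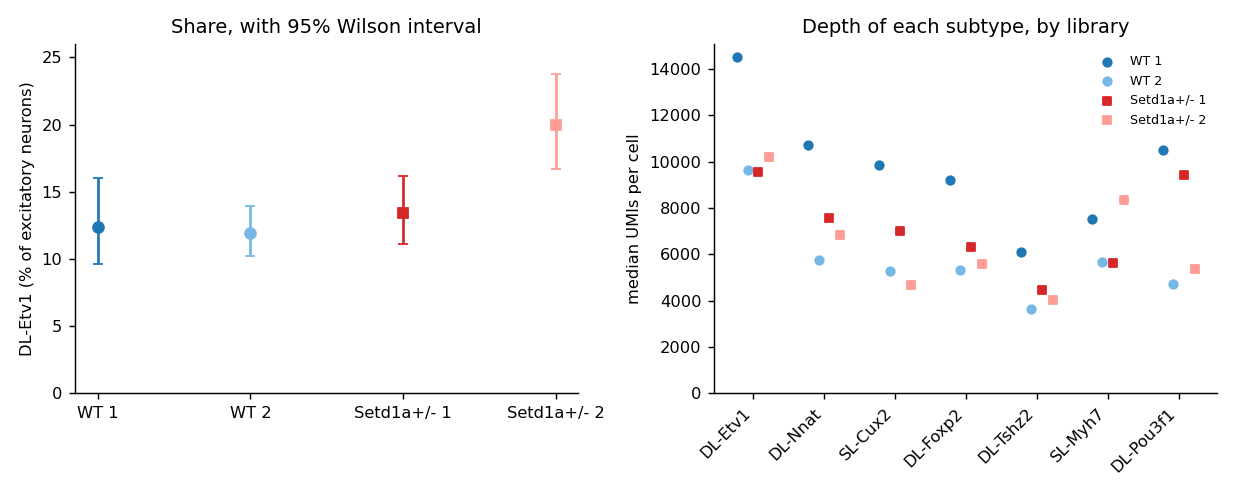
Left, share of DL-Etv1 among excitatory neurons in percent (vertical axis) in each library (horizontal axis), with 95% Wilson intervals that cover counting error only. Right, median UMIs per cell (vertical axis) in each excitatory subtype (horizontal axis) and library; Setd1a+/- replicate 2 has the highest share, at 20%, and WT replicate 1 the deepest DL-Etv1 cells, at 14540 UMIs.

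The level of Setd1a (chromosome 7, 127776670 to 127800122) was 6.75 and 15 CPM in the WT and 7.73 and 13.3 CPM in the Setd1a+/- libraries, on 5, 21, 7 and 14 UMIs. The groups overlapped, with a log2 fold change of -0.11 (SE 0.57, edgeR FDR 0.999). The libraries read the 3' ends of transcripts, which hold no reading of a frameshift upstream of them, so this level checks neither the allele nor the labels.

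No gene was called between the genotypes in DL-Etv1 neurons among 8714 tested (edgeR quasi-likelihood test on UMIs summed per library, FDR under 0.05 and fold change above 1.5), a background of 0%. This fit does not use the pairing of the libraries by replicate number, so differences between the numbers stay in its spread. At an unadjusted p under 0.05 there were 94 genes, or 1.08%, of which 53 (0.608%) were lower and 41 (0.471%) higher in Setd1a+/- mice, and the smallest FDR was 0.999. DESeq2 called 0 genes and gave 9 at an unadjusted p under 0.05. Without the 17 cells with 5 or more Nr4a2 UMIs edgeR called 0 genes and gave 93. The median mitochondrial share of a cell's UMIs was 4.17% and 4.4% for WT and 5.51% and 4.6% for Setd1a+/-, without overlap (exact permutation p = 0.333, the smallest possible). Without mitochondrial and ribosomal protein genes 0 genes were called and 93 had an unadjusted p under 0.05. The genotypes did not overlap in 1214 genes (13.9%) that were lower and 980 genes (11.2%) that were higher in Setd1a+/- mice. A lack of overlap between 2 and 2 libraries has an exact permutation p of 0.333, so these counts alone show no genotype effect. With the replicate number as a block, which pairs the libraries of the same number, 4 genes were called (0.0459%): mt-Atp8, Gm42418 and C230004F18Rik lower and Cartpt higher, while 368 genes, 4.22%, had an unadjusted p under 0.05, 240 of them lower (2.75%). The same block in DESeq2, added after seeing the data, called 0 genes and gave 8 at an unadjusted p under 0.05.

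The called genes rested on uneven libraries. The level of mt-Atp8, a mitochondrial gene of the ATP synthase that overlaps mt-Atp6, was 212 and 55.7 CPM in the WT and 16.6 and 35.2 CPM in the Setd1a+/- libraries (log2 fold change -2.27, SE 0.66, edgeR FDR 0.999; -2.06 and 6.14e-10 with the block), and the log2 fold change without the block was -1.09 when WT replicate 1 was left out. WT replicate 1 was the highest and Setd1a+/- replicate 1 the lowest of the 4 libraries also in each other excitatory subtype, with 184 and 16.6 CPM in DL-Nnat. Cartpt, a neuropeptide precursor gene, was at 14.8 and 2.86 CPM in the WT and at 3.31 and 66.6 CPM in the Setd1a+/- libraries. Of its 88 UMIs 3 cells held 76.1%, and leaving out 1 library at a time its log2 fold change ran from -1.22 to 3.60. Gm42418 was at 113 and 49.3 CPM in the WT and at 8.83 and 37.1 CPM in the Setd1a+/- libraries, and C230004F18Rik at 354 and 176 CPM against 102 and 156 CPM. With a library left out and no block, the log2 fold change of Gm42418 lay between -3.15 and -1.03 and that of C230004F18Rik between -1.37 and -0.45.

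Among genes without overlap between the genotypes, those with the smallest p are given next; none passed the adjustment for all genes tested. The higher side began with Spink8, a gene of the Kazal-type protease inhibitor family, at 10.8 and 9.28 CPM in the WT and at 25.4 and 27.6 CPM in the Setd1a+/- libraries (log2 fold change 1.43, SE 0.36). Bccip, which encodes a partner of the BRCA2 protein and of p21, was at 75.6 and 69.3 CPM against 128 and 119 CPM, a log2 fold change of 0.79 (SE 0.21). Ndn, the imprinted gene of necdin, was at 132 and 139 CPM against 209 and 264 CPM, a log2 fold change of 0.82 (SE 0.23; FDR 0.139 with the block). In these 3 genes the replicates of a genotype lay closer together than the genotypes did, which the choice by small p and no overlap favours. The other 7 were Pld5, Ptprm, Cept1, Dusp22, Ccdc130, 6030458C11Rik and Zmym1, with log2 fold changes between 0.85 and 2.06.

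The lower side began with Pinx1, a telomerase inhibitor gene, at 17.5 and 17.1 CPM in the WT and at 4.42 and 5.71 CPM in the Setd1a+/- libraries (log2 fold change -1.72, SE 0.47). Smoc2, a secreted calcium-binding matrix protein gene, was at 22.9 and 15 CPM against 6.63 and 2.85 CPM, on 17, 21, 6 and 3 UMIs (log2 fold change -1.95, SE 0.55). Pnmal2 was at 136 and 106 CPM against 65.2 and 74.2 CPM, a log2 fold change of -0.76 (SE 0.24). The same choice favours the gap in these genes, which was again wider than the spread within a genotype. It rests on few UMIs in Pinx1 and Smoc2. After mt-Atp8 the other 6 were Rnf168, Ccdc103, Slf2, Arhgap39, Rpp38 and Zfp87, with log2 fold changes between -2.06 and -0.99.

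**Figure D5:**
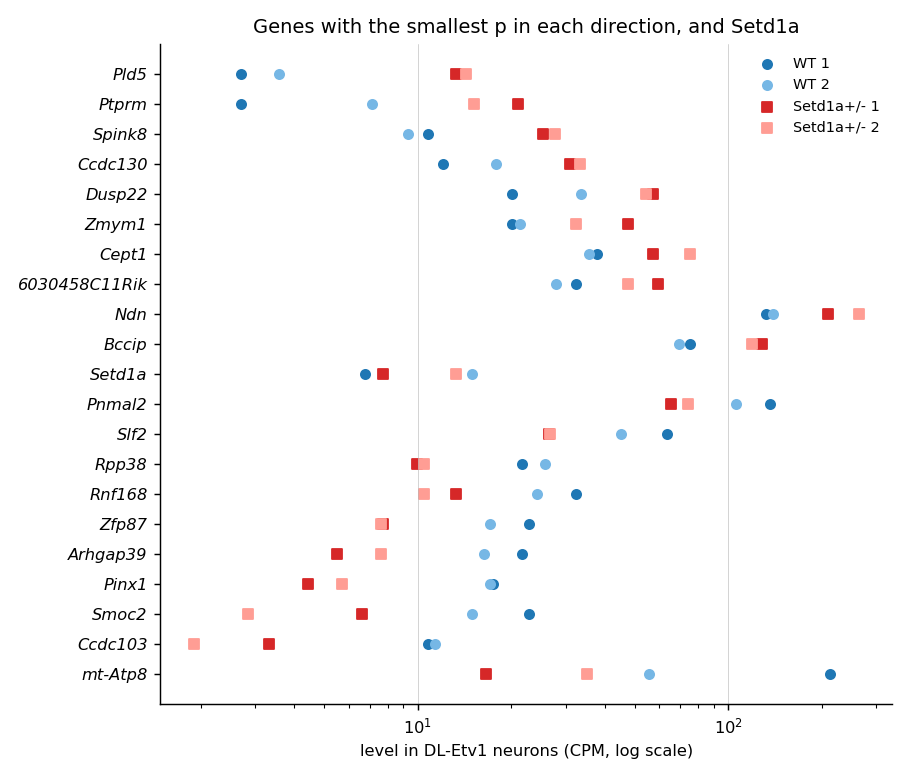
Level in CPM, on a log scale (horizontal axis), of the 10 genes with the smallest p in each direction among genes whose genotypes do not overlap, and of Setd1a (vertical axis), with a point for each library (circles WT, squares Setd1a+/-). Each gene but Setd1a was chosen for its gap; Setd1a overlaps, and in mt-Atp8 WT replicate 1 stands far above the rest at 212 CPM.

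Since the fit without the block called no gene, no list of neuronal genes had a called member. The median log2 fold change was -0.01 over all genes tested, where 50.8% were below 0. In synaptic vesicle release 24 of 31 genes tested were below 0, with a median of -0.14, and 0 had an unadjusted p under 0.05. Of 27 genes for postsynaptic scaffolds and synapse adhesion 17 were below 0, with the same median of -0.14. Of 40 potassium channel genes 20 were below 0, and of 16 subunits of the H3K4 methyltransferases 7, with a median of 0.09.

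Of 311 list members tested, 3 (0.965%) had an unadjusted p under 0.05, near the 1.08% of all genes. Bcl11b was at 22.9 and 22.9 CPM in the WT and at 7.73 and 11.4 CPM in the Setd1a+/- libraries, a log2 fold change of -1.22 (SE 0.40). Of the cadherin genes, Cdh9 was at 14.8 and 11.4 CPM against 3.31 and 5.71 CPM, and Cdh12 at 27 and 21.4 CPM against 39.8 and 44.7 CPM. The FDR of each was 0.999. The markers of the subtype showed log2 fold changes between -0.19 for Stxbp6 and 0.25 for Nell1, and Etv1 one of -0.01 (SE 0.21).

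Of the genes that the study names between genotypes in excitatory neurons, 7 were looked up in DL-Etv1. They had been chosen on these libraries in all excitatory neurons or in DL-Foxp2, not in DL-Etv1, so their values are given as a description, and none was called. Mark2, a microtubule affinity kinase gene, was at 9.45 and 80.7 CPM in the WT and at 4.42 and 95.2 CPM in the Setd1a+/- libraries (log2 fold change 0.10, SE 1.15). Scaf1, a gene of a splicing-related factor, was at 4.05 and 46.4 CPM against 2.21 and 29.5 CPM (-0.75, SE 1.08). Both followed the replicate number far more than the genotype. Taok2, a kinase gene, was at 25.6 and 15.7 CPM against 8.83 and 22.8 CPM (-0.28, SE 0.53). Nsun6, an RNA methyltransferase gene, was at 25.6 and 22.9 CPM against 13.3 and 20.9 CPM (-0.46, SE 0.37), and its log2 fold change ran from -0.87 to -0.15 with a library left out. Arl2, Ppdpf and Kit had log2 fold changes of -0.09, -0.22 and -0.08.

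The split by replicate number reached beyond these genes. Of 7985 genes with at least 50 UMIs, the 2 libraries numbered 1 lay below the 2 numbered 2 by at least 4-fold in 46 (0.576%) and above them in 7 (0.0877%), and 0 genes were so far apart by genotype. Examples, chosen after their values were seen, were the glycolytic gene Gapdh with 121 and 1045 CPM in the WT and 56.3 and 1191 CPM in the Setd1a+/- libraries, the metallothionein gene Mt3 with 6.75 and 914 CPM against 2.21 and 863 CPM, and the synaptic vesicle gene Syp with 40.5 and 522 CPM against 28.7 and 431 CPM. The pseudogene Rpl10-ps3 went the other way, with 127 and 18.6 CPM against 137 and 11.4 CPM. Slc17a7, the glutamate transporter gene, followed the number too, with 293 and 671 CPM against 170 and 644 CPM. Each genotype holds a library of each number, so the split lies across and not along the comparison of genotypes. The 4 matrices list the same 31053 gene IDs, and the labels name 1 version of Cell Ranger for all of them. Whether the libraries of the 2 numbers were counted against the same gene models was not tested, and the levels of these genes should not be compared between the numbers.

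A genotype effect was compared between DL-Etv1 and other subtypes by a test of the difference, with the library as a block. Against the other 6 subtypes pooled, 4 of 10792 genes (0.0371%) were called, namely Synpr, Nnat, Fut9 and Smoc2, and 497 (4.61%) had an unadjusted p under 0.05. In Synpr the level in DL-Etv1 was 242 and 315 CPM in the WT and 236 and 317 CPM in the Setd1a+/- libraries, and in the others 142 and 257 CPM against 326 and 345 CPM. The difference of log2 fold changes was -0.75 (SE 0.15, edgeR FDR 0.0181), made up of 0.01 in DL-Etv1 and 0.74 in the others. Without the 17 cells with 5 or more Nr4a2 UMIs, Synpr in DL-Etv1 was at 124 and 271 CPM for WT, against 151 and 113 CPM for Setd1a+/-, and the difference was not refitted without them. Nnat overlapped between the genotypes in DL-Etv1, with 14.8 and 35 CPM against 48.6 and 22.8 CPM, and did not in the others, with 105 and 152 CPM against 74 and 56.2 CPM (difference 1.42, SE 0.30, edgeR FDR 0.0181).

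Fut9, which encodes a fucosyltransferase of the Lewis x epitope, was at 323 and 379 CPM against 382 and 434 CPM in DL-Etv1 and at 592 and 462 CPM against 416 and 343 CPM in the others (difference 0.66, SE 0.14, edgeR FDR 0.0265). In Smoc2 the genotypes were apart in DL-Etv1, with a log2 fold change of -1.95, while the others were at 20.1 and 9.52 CPM in the WT and at 18.3 and 18.2 CPM in the Setd1a+/- libraries (difference -2.39, SE 0.53, edgeR FDR 0.0403). A minimum count of 20 ended the calls of Fut9 (FDR 0.0507) and Smoc2 (FDR 0.0586). Each of the 4 calls was lost when WT replicate 1 was left out, where the difference was -0.55 for Synpr, 1.26 for Nnat, 0.42 for Fut9 and -2.59 for Smoc2. The call of Synpr was also lost without either Setd1a+/- library (FDR 0.412 and 0.24), that of Nnat without Setd1a+/- replicate 1 (FDR 0.734), that of Fut9 without Setd1a+/- replicate 2 (FDR 1), and that of Smoc2 without WT replicate 2 (FDR 0.208) or Setd1a+/- replicate 2 (FDR 1). The call of Nnat against DL-Foxp2, given next, was lost without WT replicate 1 (FDR 0.14) or Setd1a+/- replicate 2 (FDR 0.0619). The make-up of the pooled others moved with the libraries: DL-Foxp2 made up 33.7% and 33.5% of them in WT and 33.7% and 17.8% in Setd1a+/- libraries, and SL-Cux2, where Synpr is highest with 765 CPM, 18.4% and 27.4% against 23.4% and 34.4%. Its part in the calls was not tested.

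Single subtypes gave fewer calls. Against SL-Cux2 0 of 9207 genes were called (0%), with 337 (3.66%) at an unadjusted p under 0.05. Against DL-Nnat 1 of 8845 (0.0113%) was called, beside 520 (5.88%) at an unadjusted p under 0.05. It was the haemoglobin gene Hbb-bs, which was at 1083 CPM in the DL-Nnat cells of WT replicate 1 and at 12.6 to 33.1 CPM in the other libraries; without that library the difference went from 4.11 to 0.09. Against DL-Foxp2 2 of 9469 (0.0211%) were called, beside 442 (4.67%) at an unadjusted p under 0.05. Hbb-bs differed by -3.33, with 639 CPM in the DL-Foxp2 cells of Setd1a+/- replicate 1, and by -0.23 without it. Nnat differed by 1.96 (SE 0.38, edgeR FDR 0.00681), with DL-Foxp2 levels of 120 and 102 CPM for WT, against 66.7 and 2.57 CPM for Setd1a+/-. Without Setd1a+/- replicate 1 that difference in Nnat was 5.11. Its Setd1a+/- level in DL-Foxp2 then rests on 1 UMI in the 69 cells of Setd1a+/- replicate 2.

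Of the 4 genes called against the pooled subtypes, the call repeated against 1 of these 3 single subtypes for Nnat and against none for the others. Synpr differed by 0.68 against DL-Nnat (edgeR FDR 0.757) and by -0.49 against SL-Cux2 (FDR 1), and neither passed the test. Against DL-Nnat the difference in Synpr was 1.09 and called without WT replicate 1 (FDR 0.0117), and -0.68 without WT replicate 2 (FDR 0.842), so its direction there rests on single libraries. Against DL-Foxp2, where Synpr had 1, 24, 6 and 4 UMIs, the difference was 0.33 (FDR 0.999), and -2.41 without WT replicate 2 and -0.13 without Setd1a+/- replicate 1. Nnat differed by 0.96 against DL-Nnat (FDR 0.443) and by 1.60 against SL-Cux2 (FDR 1), the latter on 2, 4, 0 and 2 UMIs in SL-Cux2 and running from -0.17 without Setd1a+/- replicate 1 to 5.36 without Setd1a+/- replicate 2. Fut9 differed by 0.23 against DL-Nnat (FDR 0.892), 0.49 against SL-Cux2 (FDR 1) and 0.62 against DL-Foxp2 (FDR 0.364). Smoc2 differed by -1.94 against DL-Nnat (FDR 0.658), -1.95 against SL-Cux2 (FDR 1) and -1.06 against DL-Foxp2 (FDR 0.999). With 1, 2, 0 and 1 UMIs in DL-Foxp2, the last value ran from -3.80 without Setd1a+/- replicate 1 to 2.05 without Setd1a+/- replicate 2.

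RNA of other cells was low in DL-Etv1 neurons. The summed level of 8 oligodendrocyte markers was 124 to 150 CPM over the WT and 127 to 179 CPM over the Setd1a+/- libraries, against 75915 CPM in oligodendrocytes. The 7 astrocyte markers summed to 29.7 to 86.4 CPM and 55.2 to 65.7 CPM, the 6 interneuron markers to 6.75 to 37.1 CPM and 5.71 to 9.94 CPM, and the 6 microglia markers to 21.6 to 30.7 CPM and 15.2 to 24.3 CPM. The 18 immediate early genes summed to 1108 to 1231 CPM over the WT and 1047 to 1569 CPM over the Setd1a+/- libraries. All of these ranges overlapped between the genotypes, and each of these markers had at least 1 UMI in DL-Etv1 cells.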

How the data were processed

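Single-cell RNA sequencing libraries of the PFC were analysed, 2 per genotype. Per the labels, the authors made the counts with Cell Ranger 3.0.2 on mm10, and the deposited matrices hold raw whole-number UMI counts per gene and barcode. The authors dropped cells under 800 genes or over 10% mitochondrial UMIs, and named the clusters after integration in Seurat 3.2.0. Their methods name no removal of doublets, and none was called here. Library totals ran from 15154268 to 24594416 UMIs.

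UMIs were summed over the DL-Etv1 cells of each library and tested with edgeR 4.0.16 in R 4.3.3 (glmQLFTest with genotype as the only term, TMM scaling, genes kept by filterByExpr at a count of 10, p-values adjusted by Benjamini-Hochberg). The authors' test per cell was not run, since cells of 1 library are not replicates. DESeq2 1.42.0 was an alternative. The scripts were tested on simulated data. Mice were pooled, so p-values measure the spread between libraries. Intervals cover counting error only. Coordinates are from GENCODE vM21, in which 31011 of 31053 gene IDs were found. The methods state that each biological replicate held a sample of each genotype, and the deviations of same-numbered libraries from their genotype means had a correlation of 0.496 across 8714 genes, so the numbers were taken to pair the libraries. The main genotype fit leaves this pairing out, and the replicate block, an alternative, uses it.

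The cells, lists and tests were chosen with earlier results of these data known. Genes named between subtypes were those that met the rule for higher genes, the 10 lowest against the nearest other subtype (not all are reported here), and the extremes of the lists of layer genes, channels, receptors and calcium-binding proteins. Between genotypes they were Setd1a, the genes called, the 10 with the smallest p in each direction among genes without overlap, 7 that the study names, and list members. Alternatives changed the scaling, the filter, the depth per cell, the tool, the block and the libraries included.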

Additional observations from a re-analysis of the deposited data

Results flagged for a closer look

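The genotype effect in DL-Etv1 neurons differed from that in the other excitatory subtypes pooled in 4 genes, by a test of the difference (edgeR quasi-likelihood test, library as a block). The difference of log2 fold changes was -0.75 in Synpr, 1.42 in Nnat, 0.66 in Fut9 and -2.39 in Smoc2. Synpr was not called against DL-Nnat (0.68, FDR 0.757), DL-Foxp2 (0.33, FDR 0.999) or SL-Cux2 (-0.49, FDR 1). Its sign against DL-Nnat and DL-Foxp2 changed with the library left out, to -0.68 and -2.41 without WT replicate 2. Fut9 was not called against DL-Nnat (0.23, FDR 0.892), SL-Cux2 (0.49, FDR 1) or DL-Foxp2 (0.62, FDR 0.364). Against DL-Nnat alone it was 4.11 in Hbb-bs, and against DL-Foxp2 alone -3.33 in Hbb-bs and 1.96 in Nnat. The Hbb-bs values rest on 1 library each, and the levels behind all of them are given above with the libraries whose omission ends a call.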

How the results depend on the processing

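The limits are the number and depth of the libraries. A gene with 10 UMIs in a library moves by several CPM on counting error alone. Each genotype had 2 libraries. The count of genes called between genotypes was 0 with other scalings, DESeq2, a minimum count of 20 and thinned cells, 3 with no filter on low counts, and 0 to 7 when libraries were left out in turn, the 7 without Setd1a+/- replicate 1. The count of genes at an unadjusted p under 0.05 was 94, and the same count, over genes not matched to those, was 9 with DESeq2, 301 with no filter, 54 with a minimum count of 20, 32 with cells thinned to 1000 UMIs and, with libraries left out, 39 (WT replicate 1) to 685 (Setd1a+/- replicate 2), with 241 without Setd1a+/- replicate 1. With the replicate block 4 genes were called and 368 had an unadjusted p under 0.05, and the block with DESeq2, added after seeing the data, gave 0 and 8. In the share of cells the block gives 4.55 points by construction, and beyond these 4 genes it changed no call among the genes followed between genotypes. The comparisons between subtypes have the library as a block already. The cause of these shifts was not tested.

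Of 40 genes whose log2 fold change was followed, 32 kept their direction under every alternative in which they were tested, which follows from the choice itself, when a library is left out, for the genes named because their libraries did not overlap. Leaving out libraries turned 8, with ranges of -0.60 to 0.72 for Setd1a, -1.22 to 3.60 for Cartpt, -1.18 to 0.25 for Taok2, -3.63 to 2.06 for Scaf1, -3.46 to 2.50 for Mark2, -1.14 to 0.51 for Arl2, -0.76 to 0.18 for Ppdpf and -1.06 to 0.48 for Kit. Thinned cells gave 0.40 for Arl2 and 0.04 for Ppdpf.

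The differences of the genotype effect called, when libraries were left out, 1 (Setd1a+/- replicate 2) to 16 genes (WT replicate 2) against the other subtypes, 2 (Setd1a+/- replicate 2) to 13 (Setd1a+/- replicate 1) against DL-Nnat, 0 to 6 (WT replicate 1) against SL-Cux2, and 1 (Setd1a+/- replicate 1) to 5 (Setd1a+/- replicate 2) against DL-Foxp2. A minimum count of 20 gave 2 genes (Synpr and Nnat) against the other subtypes and 3 against DL-Nnat. The difference in the share of DL-Etv1 was 1.25 to 7.85 points. The median UMIs per cell differed by -2206 between Setd1a+/- and WT libraries, by -4654 to 240 when libraries were left out, and by 240, the other direction, without WT replicate 1.

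The rule for higher genes gave 0 genes at 3-fold, 1 gene (Nr4a2) in thinned cells, 6 without SL-Myh7 and DL-Pou3f1, and 2 to 4 when libraries were left out. With UMIs pooled over the 4 libraries it gave 3 genes, 2 of them shared with the main rule. Only 2 were shared also without Setd1a+/- replicate 1, where Deptor was lost, and without Setd1a+/- replicate 2. Without either WT library all 3 were kept. Without the cells with 5 or more Nr4a2 UMIs, an alternative added after seeing the data, it gave 3.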
